A study of Mus musculus with 21 samples.

Results

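The 41 genes described here encode the proteins by which heart muscle takes up fatty acids, stores them in droplets, carries them into mitochondria and oxidizes them, together with the nuclear receptors and coactivators that switch these genes on and the best-known targets of the peroxisome proliferator-activated receptors (PPARs). The list gives them by name and role and uses no measured value of these libraries as a criterion, but it was chosen with earlier results of these data known. All 41 were found among the 56691 genes of the deposited table. The genes were measured by RNA sequencing of mouse hearts in 4 groups. The Control (5 libraries) and Tb (6 libraries) groups received normal saline, whereas the DOX (5 libraries) and Tb-DOX (5 libraries) groups received doxorubicin, an anthracycline used against cancer, by intraperitoneal injection at 5 mg/kg each week for 3 weeks. Tb and Tb-DOX mice carried subcutaneous tumors of 4T1, a murine breast cancer line, and Control and DOX mice carried none. The strain, sex and age of the mice, and whether hearts were pooled, are not given in the sources used here. The tumors came from 1 injected line under the skin, so the groups model that line only.

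The heart covers most of its energy need by burning fatty acids. Lipoprotein lipase and fatty acid transporters bring them to the cell, acyl-CoA synthetases activate them, the carnitine shuttle moves them across the mitochondrial membranes, and the β-oxidation spiral shortens them step by step while passing electrons to the respiratory chain. PPARα and PPARδ, which bind fatty acids, work with the coactivators PGC-1α and PGC-1β and with the estrogen-related receptor ERRα to set the expression of these genes, and targets such as *Pdk4*, *Ucp3* and *Angptl4* rise quickly on fasting.

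The labels give 4T-1 as the cell line also for Control libraries, whereas the study describes heart tissue, so marker genes of both were examined. Levels are given throughout as TMM-scaled FPKM, the counts per kilobase of gene relative to the library total, after scaling between libraries, which can be compared between genes. The summed level of 8 cardiomyocyte markers was 10800 to 20200 in the 21 libraries, and that of 6 epithelial markers fixed for the 4T1 line was 0.109 to 2.57. Of 8 adipocyte markers only *Cidea* passed the filter on low values, at 13.5 to 20.5, and *Adipoq* was at most 0.245. Total counts were 13521200 to 18601445 per library, of which the 41 genes took 2.07% to 2.77%. Over all genes tested, Tb replicate 5 correlated with the rest of its group at 0.864 to 0.912 and Tb replicate 6 at 0.912 to 0.944, where other Tb pairs reached 0.963. The members called in Tb-DOX against Tb are therefore given with and without Tb replicates 5 and 6. In bulk RNA, fewer cells of a type and less RNA per cell cannot be told apart. The labels do not say that replicates came from separate animals, so p-values measure the spread between these libraries.

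A minority of the members was called with doxorubicin in each state. In mice without tumors the falls were *Cpt2*, *Ucp3*, *Acot2*, *Acads*, *Hadh*, *Fabp3*, *Fabp4*, *Plin2* and *Plin5*, and in tumor-bearing mice *Pdk4*, *Angptl4*, *Ucp3*, *Acot2*, *Cpt2* and *Fabp4*, with 0 of the spiral, auxiliary and electron transfer genes among them in the fit with all libraries. In DOX hearts 2 of the 41 genes rose and 9 fell against Control at an adjusted p under 0.05 in edgeR's quasi-likelihood test. These 11 genes are 26.8% of the members, where 36.2% of the 13990 genes tested were called (18% higher and 18.2% lower). By direction, 22% of the members fell beside 18.2% of all genes. With library totals in place of TMM scaling 22 members fell and 2 rose (58.5% called, beside 35.4% of all genes), where all genes split into 1419 higher and 3532 lower, against 2523 and 2548 with TMM. Without DOX replicate 5, 16 members fell and 3 rose (46.3% called, beside 36.6% of all genes, and 39% lower beside 18%). The members' share called in either direction was thus below or above that of all genes depending on the scaling and on this library. The members' median log2 fold change was −0.27, beside 0.00 for all genes tested. The DOX and Control libraries did not overlap in 7 members (17.1%), beside 25.3% of all genes. A 2-fold fall with the adjusted p was passed by 3 members (*Cpt2*, *Ucp3* and *Fabp3*), beside 5.79% of all genes.

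In tumor-bearing mice 0 members rose and 6 fell in Tb-DOX against Tb, which is 14.6% of the members beside 4.72% of all genes tested (2.18% higher and 2.54% lower). By an unadjusted p under 0.05 in edgeR, 0 members were higher and 10 lower, and DESeq2 and limma also called 0 members higher. The median log2 fold change of the members was −0.10, beside −0.02 for all genes, and 2 members (4.88%) did not overlap, beside 4.96% of all genes. A 2-fold fall was passed by 3 members, *Pdk4*, *Angptl4* and *Ucp3*, beside 0.665% of all genes. Without Tb replicates 5 and 6, 16 members fell in this comparison and 0 rose, where 10.3% of all genes were called, and without Tb replicate 6 alone 11 fell (26.8%, beside 6.7% of all genes called). The 16 were the 6 called with all libraries and *Mlycd* (−0.43, adjusted p = 0.0367), *Acads* (−0.56, 0.0385), *Hadh* (−0.50, 0.0229), *Hadha* (−0.42, 0.0428), *Hadhb* (−0.62, 0.0134), *Ech1* (−0.47, 0.00883), *Decr1* (−0.52, 0.00873), *Fabp3* (−0.85, 0.0053), *Acsl1* (−0.36, 0.0323) and *Plin2* (−0.55, 0.0315), as log2 fold changes in edgeR. Among the 6, *Pdk4* was then at −3.07 (adjusted p = 0.000284), *Angptl4* at −2.42 (0.00495) and *Fabp4* at −0.42 (0.0236), and the other members of the 6 are given with their levels. Leaving out the same libraries moved the count of falls in DOX against Control to 16 as well (46.3% called in either direction, beside 43.6% of all genes), in a fit where all groups share 1 estimate of the spread. These 2 comparisons share no library.

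**Figure D1:**
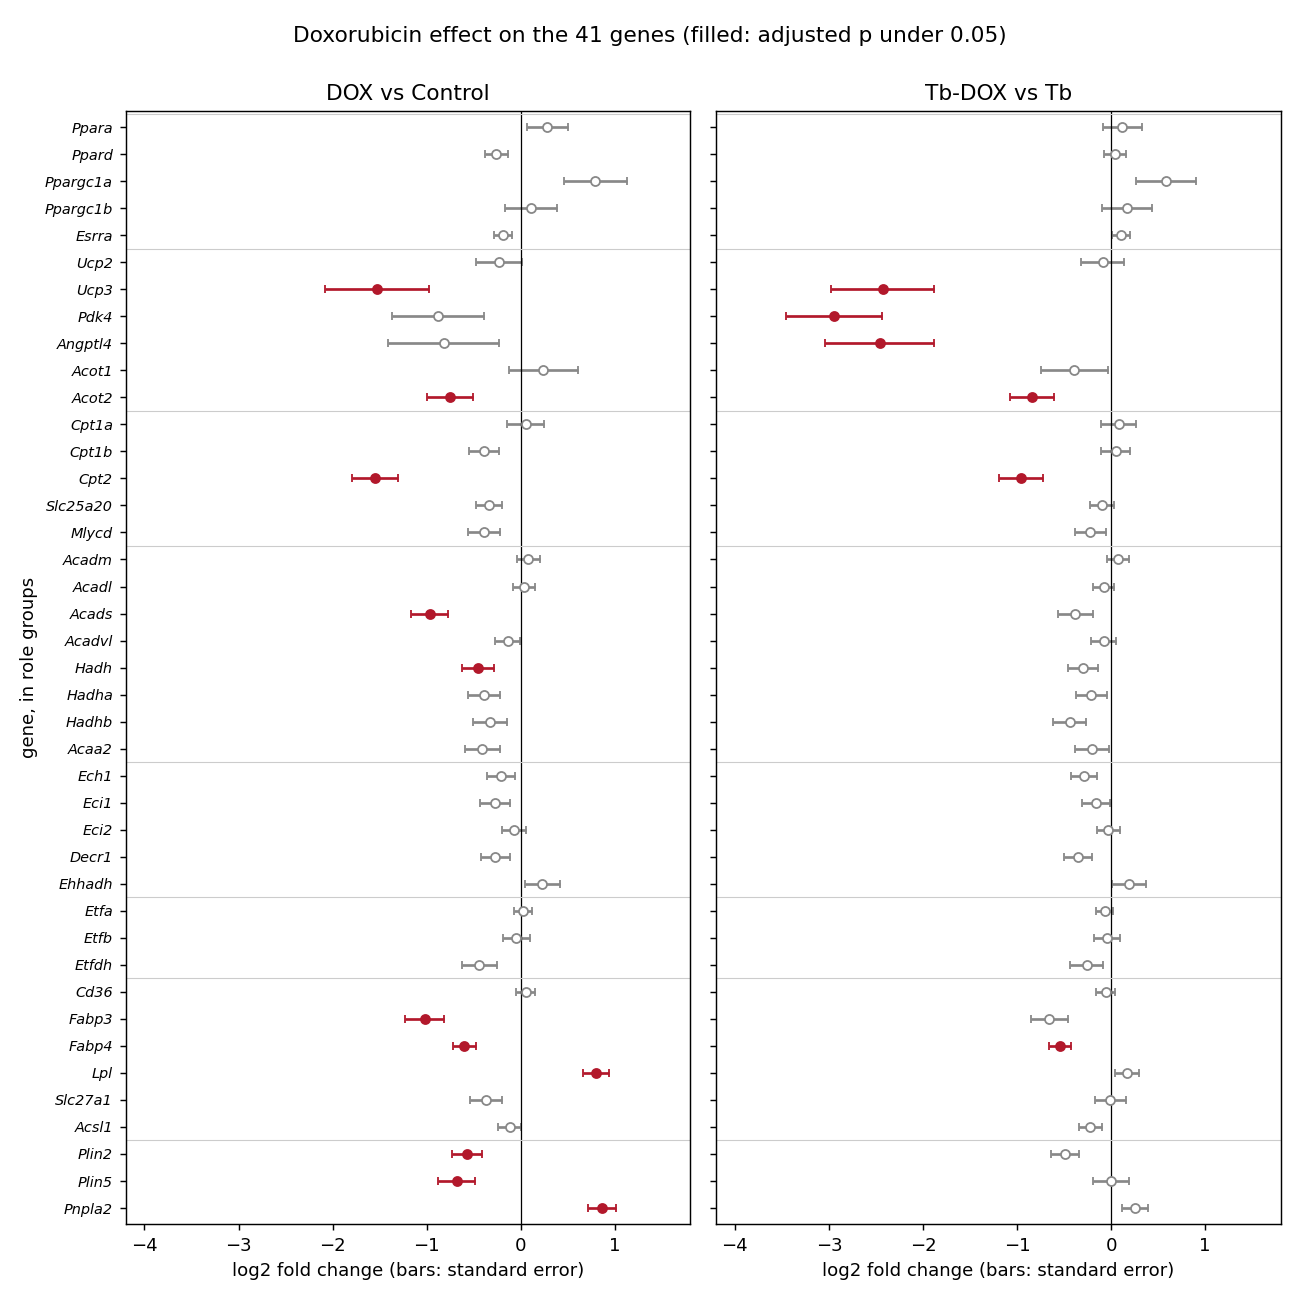
Log2 fold change of each of the 41 genes in DOX against Control (left) and Tb-DOX against Tb (right), with bars for the standard error and filled points for an adjusted p under 0.05. The called falls reach −1.55 (*Cpt2*) without a tumor and −2.95 (*Pdk4*) with a tumor, while most genes lie close to 0.

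By edgeR, with TMM scaling, the filter on low values and all libraries, 0 of the 5 regulators were called in any comparison. At an unadjusted p under 0.05 in edgeR, 1 regulator was higher and 1 lower in DOX against Control, and 0 in Tb-DOX against Tb, and DESeq2 called 0 in both. Limma on the FPKM values, which uses library totals alone, and edgeR with library totals called *Ppard* (−0.40 with edgeR, adjusted p = 0.00899) and *Esrra* (−0.34, 0.0246) lower in DOX, and called both genes in Tb-DOX against DOX. *Esrra* was also called in the latter comparison at an average FPKM of 5 or more, and *Ppard* lower in DOX without DOX replicate 4. *Ppara*, which encodes PPARα, was at 8.42, 9.46, 5.84, 11 and 8.75 in the 5 Control libraries and 9.73, 14.2, 7.01, 13.2 and 8.75 in the 5 DOX libraries. The groups overlapped widely (log2 fold change 0.28, SE 0.218, adjusted p = 0.324). In tumor-bearing mice *Ppara* was at 4.76 (lowest), 7.05 (median) and 9.52 (highest) in Tb and 8.16, 5.59, 6.67, 7.83 and 10.9 in Tb-DOX (log2 fold change 0.12, SE 0.209, adjusted p = 0.793), again with wide overlap. *Ppargc1a*, which encodes PGC-1α, was at 24.3, 27, 22.8, 19 and 25 in Control and 31.4, 23.7, 27.3, 101 and 20.1 in DOX. DOX replicate 4 stood far above the rest of its group, and the other DOX libraries overlapped with Control. The difference was not called (log2 fold change 0.79, SE 0.335, adjusted p = 0.0702), and it shrank to 0.13 when DOX replicate 4 was left out. The call was reached without DOX replicate 2, DOX replicate 5 or Tb replicate 5, with log2 fold changes of 0.80 to 0.97, and also with no filter on low values or without Tb replicates 5 and 6 together. DOX replicate 4 also held the highest summed level of 8 T cell and thymocyte markers, at 76.5 where the other DOX libraries held 1.33 to 3.63. Of this sum *Cd3e* made up 76.1, and each of the other 7 markers was at 0.244 or less. In Tb the level was 10.5 (lowest), 19 (median) and 25.6 (highest), and in Tb-DOX 38.5, 24.6, 26.4, 20 and 32.4 (log2 fold change 0.58, SE 0.318, adjusted p = 0.32). The PPARδ gene *Ppard*, the PGC-1β gene *Ppargc1b* and the ERRα gene *Esrra* were at log2 fold changes of −0.26, 0.11 and −0.19 in DOX and 0.04, 0.17 and 0.10 in Tb-DOX.

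Of the 6 genes for uncoupling proteins, the fuel switch and thioesterases, 4 fell with doxorubicin in tumor-bearing mice, where 2.54% of all genes tested fell, and 2 fell without a tumor, where 18.2% did. The difference between the states was called for 0 of these 6 genes by edgeR with TMM scaling, the filter on low values and all libraries, and for *Pdk4* with no filter and by DESeq2. *Pdk4* (chr6:5483351-5496309, minus strand, in the deposited coordinates) encodes the kinase that shuts off pyruvate dehydrogenase and so spares glucose. In Tb hearts *Pdk4* was at 61.6 (lowest), 286 (median) and 470 (highest), and in Tb-DOX hearts at 45.4, 43.1, 32.9, 23.9 and 37.3. Every Tb library lay above every Tb-DOX library, and Tb replicate 6 was the only Tb library below 189. *Pdk4* fell to 0.129 of the Tb level (log2 fold change −2.95, SE 0.511, adjusted p = 0.00277). Without a tumor it was at 216, 155, 79.8, 60.1 and 64.8 in Control and 51.7, 21.6, 34.8, 54.3 and 151 in DOX. Control replicates 1 and 2 were high, as was DOX replicate 5, and the groups overlapped. The fall was not called (log2 fold change −0.88, SE 0.488, adjusted p = 0.166), but *Pdk4* was called when DOX replicate 5 was left out (−1.49, adjusted p = 0.0165).

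*Ucp3* (chr7:100122197-100135639, plus strand) encodes a mitochondrial carrier of muscle and heart that rises with fatty acid supply. It was at 8.62, 7.03, 4.24, 4.02 and 4.8 in Control and 1.83, 1.43, 2.23, 0.925 and 3.53 in DOX. All DOX libraries lay below all Control libraries, although DOX replicate 5 came close to the lowest Control value. *Ucp3* fell to 0.347 of the Control level (log2 fold change −1.53, SE 0.554, adjusted p = 0.0353). Omitting 1 library at a time, 6 of 21 fits no longer called it (Control replicates 1 and 2 and DOX replicates 1 to 4), with log2 fold changes of −1.57 to −1.33 and adjusted p of 0.0588 to 0.0871. With the replicate number as a block the call was lost too (−1.49, adjusted p = 0.0538). In Tb *Ucp3* was at 0.791 (lowest), 9.23 (median) and 24.4 (highest), and in Tb-DOX at 3.06, 1.53, 1.57, 1.66 and 1.93. Tb replicate 5, at 0.791, was the lowest of all 21 libraries, and Tb replicate 4, at 24.4, the highest. *Ucp3* fell in Tb-DOX as well (log2 fold change −2.43, SE 0.545, adjusted p = 0.0144), and without Tb replicates 5 and 6, when the groups no longer overlapped, the log2 fold change was −2.92 (adjusted p = 1.6e-05). With all libraries the call was lost when only Tb and Tb-DOX were fitted (−2.44, adjusted p = 0.0655) and in limma at either pseudocount (−1.54, adjusted p = 0.0723, at a pseudocount of 1).

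*Angptl4* encodes a secreted inhibitor of lipoprotein lipase. Its level was low in these hearts, with 6 to 239 counts per library. It was at 0.356 (lowest), 1.31 (median) and 3.47 (highest) in Tb and 0.317, 0.325, 0.143, 0.404 and 0.422 in Tb-DOX. Tb replicate 6 lay within the Tb-DOX range and the other Tb libraries above it. *Angptl4* fell to 0.181 of the Tb level (log2 fold change −2.46, SE 0.577, adjusted p = 0.018), a call that was lost without Tb-DOX replicate 3 (log2 fold change −2.29, adjusted p = 0.052). In Control it was at 1.46, 0.988, 0.356, 0.32 and 0.794 and in DOX at 0.191, 0.372, 0.357, 0.137 and 1.17. DOX replicate 5 lay high and the groups overlapped (log2 fold change −0.82, SE 0.591, adjusted p = 0.287). With DOX replicate 5 omitted, *Angptl4* was called (−1.55, adjusted p = 0.0488).

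The thioesterase *Acot2*, which splits long acyl-CoAs inside mitochondria, was at 24.6, 21.9, 13.9, 19 and 13.3 in Control and 12.3, 9.36, 8.46, 8.22 and 16.6 in DOX. Only DOX replicate 5 reached the Control range, and *Acot2* fell (log2 fold change −0.75, SE 0.243, adjusted p = 0.0193). The call was lost without Control replicate 1, DOX replicate 3 or DOX replicate 4 (log2 fold change −0.66 to −0.63, adjusted p 0.0573 to 0.0602). It was at 10.6 (lowest), 18.9 (median) and 28.1 (highest) in Tb and 12.2, 9.02, 10.2, 9.56 and 10.8 in Tb-DOX, with Tb replicates 5 and 6 inside the Tb-DOX range. *Acot2* fell there too (log2 fold change −0.84, SE 0.234, adjusted p = 0.0421), but omitting 1 library at a time, 11 of 21 fits no longer called it (Control replicates 2 and 4, Tb replicates 1 to 4 and each Tb-DOX library), with adjusted p of 0.0506 to 0.103. It was also lost when only Tb and Tb-DOX were fitted (−0.84, adjusted p = 0.0706) and in limma at either pseudocount (−0.71, adjusted p = 0.077, at a pseudocount of 1). Without Tb replicates 5 and 6 the log2 fold change was −1.10 (adjusted p = 0.0012). Its cytosolic copy *Acot1* was at 1.79, 2.05, 1.91, 0.789 and 0.885 in Control, 1.4, 1.05, 2.02, 2.53 and 1.79 in DOX, 0.602 (lowest), 1.4 (median) and 3.71 (highest) in Tb and 1.29, 1, 1.7, 1.29 and 1.22 in Tb-DOX. The 4 groups overlapped, and *Acot1* was not called (log2 fold change 0.24, SE 0.37, adjusted p = 0.647 in DOX). Of 2123 windows of 150 bases in the *Acot1* transcript of GENCODE M21, 209 (9.84%) also occur in *Acot2*, so the division of reads between both genes is uncertain.

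*Ucp2*, a mitochondrial carrier found in many cells including leukocytes, was at 5.44, 4.83, 4.85, 3.76 and 3.51 in Control, 4.58, 4.77, 3.27, 3.79 and 2.73 in DOX, 4.36 (lowest), 6.33 (median) and 10.7 (highest) in Tb and 6.91, 8.91, 4.92, 8.48 and 4.19 in Tb-DOX. The highest values lay in Tb replicates 5 and 6 and the lowest in DOX, and the 4 groups overlapped. Doxorubicin left it uncalled in both states (log2 fold change −0.23, SE 0.242, adjusted p = 0.483 without a tumor and log2 fold change −0.09, SE 0.228, adjusted p = 0.857 with a tumor). Tb-DOX lay above DOX (log2 fold change 0.80, SE 0.241, adjusted p = 0.0249), and this call was lost without DOX replicates 3, 4 or 5 or Tb-DOX replicates 2 or 4 (log2 fold change 0.68 to 0.79, adjusted p 0.0515 to 0.0731). Beside it, the summed level of 6 neutrophil markers was at 1.05 to 4.57 in Control, 9.2 to 83 in DOX, 767 to 6930 in Tb and 1180 to 4960 in Tb-DOX. The part of these cells in the *Ucp2* level was not tested.

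**Figure D2:**
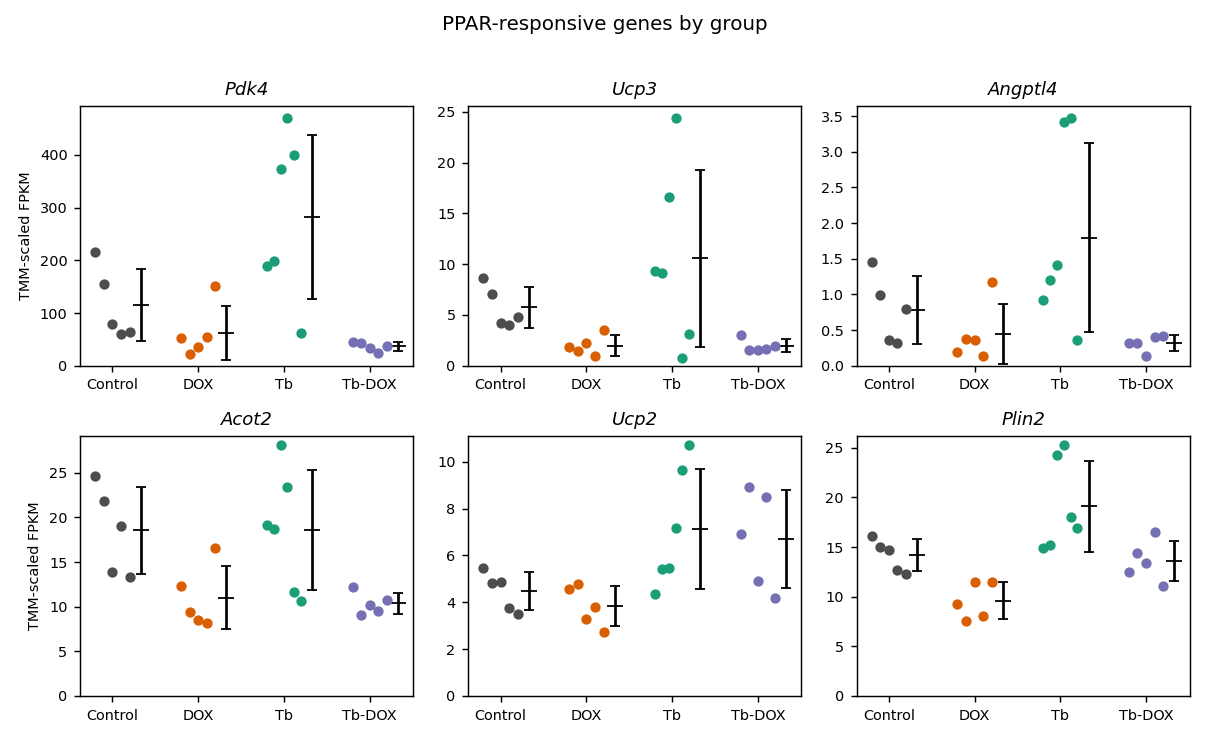
TMM-scaled FPKM of 6 genes by group, with 1 point per library and bars for the mean ± SD of 5 Control, 5 DOX, 6 Tb and 5 Tb-DOX libraries. *Pdk4* in Tb-DOX sits at 23.9 to 45.4, below all Tb libraries (61.6 to 470), and Tb values of *Pdk4*, *Ucp3* and *Angptl4* spread most.

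The promoters of the module were searched for the 2 sequence motifs that PPAR with its partner RXR and the estrogen-related receptors are known to bind. The RefSeq table holds 250 bases before to 50 after the start for 34 of the 41 genes (assembly GRCm38.p6). On both strands, 0 of these 34 genes held the direct repeat AGGTCANAGGTCA exactly or with 1 mismatch, beside 0.0396% and 0.554% of all 32851 promoters. With 2 mismatches allowed, a limit chosen after seeing the first search, 5 of the 38 promoters of these genes held it, beside 3.86% of all promoters. They belong to *Cd36*, *Etfa*, *Plin2*, *Slc25a20* and *Ucp3*. The estrogen-related receptor motif TCAAGGTCA, whose last letters can overlap a repeat, occurred exactly in 0 members (0.423% of all promoters) and with 1 mismatch in *Ech1* alone (7.46%). A match is a string of letters and not a shown site, and no match says only that these letters are not in this window. The closest windows of 4 members are shown because these genes differ in the data, *Ucp3* and *Plin2* falling in DOX and *Cd36* and *Etfa* not called. Capitals mark the matched bases, read 5′ to 3′ on the strand of the gene, where *Ucp3* holds the repeat itself and the others its reverse complement.
*Ucp3* (chr7:100472925-100472967, plus strand): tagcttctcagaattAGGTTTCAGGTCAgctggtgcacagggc
*Plin2* (chr4:86670257-86670299, minus strand): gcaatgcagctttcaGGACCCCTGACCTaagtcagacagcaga
*Cd36* (chr5:17835932-17835974, minus strand): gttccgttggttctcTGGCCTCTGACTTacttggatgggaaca
*Etfa* (chr9:55512293-55512335, minus strand): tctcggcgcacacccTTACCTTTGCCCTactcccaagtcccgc

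In the carnitine shuttle 1 of 5 genes fell in both states by edgeR with TMM scaling, the filter on low values and all libraries. Of all genes tested, 18.2% fell in DOX and 2.54% in Tb-DOX. The gate enzyme was not called in that fit. *Cpt2* (chr4:107761178-107780807, minus strand) encodes carnitine palmitoyltransferase 2, which rebuilds acyl-CoA inside the mitochondrion. It was at 73.3, 74.5, 79.8, 65.4 and 63.2 in Control and 29.6, 21.9, 14.2, 21.7 and 34.4 in DOX. The 5 DOX libraries lay far below the 5 Control libraries, with DOX replicate 3 lowest. *Cpt2* fell to 0.341 of the Control level (log2 fold change −1.55, SE 0.249, adjusted p = 9.26e-05), the largest called fall of the module in this comparison. In Tb hearts it was at 27.8 (lowest), 66.2 (median) and 73.5 (highest), and in Tb-DOX hearts at 31.6, 30.6, 32.8, 23.5 and 25.4. Tb replicates 1 to 4 lay at 62.6 to 73.5, close to Control, whereas Tb replicates 5 and 6 lay at 30.4 and 27.8, inside the Tb-DOX range. *Cpt2* fell in Tb-DOX (log2 fold change −0.96, SE 0.237, adjusted p = 0.0233), and without Tb replicates 5 and 6 the log2 fold change was −1.27 (adjusted p = 6.99e-05). The call was lost without Tb replicate 1, 2 or 3 or Tb-DOX replicate 4 or 5 (log2 fold change −0.92 to −0.87, adjusted p 0.0531 to 0.0663). It was also lost when only Tb and Tb-DOX were fitted (−0.96, adjusted p = 0.0683) and in limma at either pseudocount (−0.83, adjusted p = 0.0543, at a pseudocount of 1).

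*Cpt1b*, the muscle form of carnitine palmitoyltransferase 1 and the rate-limiting gate of the shuttle, was at 34.6, 35.7, 26.2, 29.1 and 31.2 in Control and 25.6, 23.7, 15.6, 22.2 and 32.8 in DOX. DOX replicates 1 to 4 lay below the lowest Control value and DOX replicate 5 within the Control range, and the gene was not called (log2 fold change −0.39, SE 0.162, adjusted p = 0.0661). It was called lower with library totals (−0.53, adjusted p = 0.0097), and without DOX replicate 5 or Tb replicate 5 (−0.52 and −0.38). In Tb it was at 17.3 (lowest), 26.5 (median) and 29.4 (highest) and in Tb-DOX at 25.7, 24, 25.5, 21.8 and 30.1, with overlap (log2 fold change 0.05, SE 0.155, adjusted p = 0.883). The liver form *Cpt1a*, at group means of 5.25 ± 1.13 in Control and 5.44 ± 1.45 in DOX, was at log2 fold changes of 0.05 and 0.08 in the 2 comparisons. The carnitine carrier *Slc25a20* (−0.34, adjusted p = 0.0532) and *Mlycd* (−0.39, adjusted p = 0.0728), which breaks down the shuttle's inhibitor malonyl-CoA, were not called by edgeR in DOX with all libraries and TMM scaling. Both were called lower in DOX with library totals, limma, an average FPKM of 5 or more, the replicate block, and without Tb replicates 5 and 6. *Cpt1b* was called in the same fits apart from the block, and *Mlycd* also when only DOX and Control were fitted. Among fits that omitted a single library, *Mlycd* was called without DOX replicate 3 or Tb replicate 5, and *Slc25a20* without DOX replicate 5, Tb replicate 5 or Tb replicate 6.

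Of the 8 enzymes of the β-oxidation spiral, 2 fell in DOX by edgeR with TMM scaling, the filter on low values and all libraries, where 18.2% of all genes tested fell. In Tb-DOX, where 2.54% of all genes fell, 0 were called by edgeR, DESeq2 or limma with all libraries and no block. At an unadjusted p under 0.05 in edgeR, 1 (*Hadhb*) was lower in Tb-DOX. *Hadhb* was called lower there with the replicate block (−0.56, adjusted p = 0.048) and without Tb replicate 6, and *Acads*, *Hadh*, *Hadha* and *Hadhb* without Tb replicates 5 and 6. *Acads* (chr5:115248358-115257405, minus strand) encodes the acyl-CoA dehydrogenase for short chains. It was at 57, 55.7, 73, 56 and 58.7 in Control and 34, 30.5, 17.1, 31.8 and 39.8 in DOX. Every DOX library lay below every Control library. *Acads* fell to 0.509 of the Control level (log2 fold change −0.97, SE 0.194, adjusted p = 0.000654), a value that was −0.81 with DOX replicate 3, the lowest, left out. It was at 26.4 (lowest), 47.7 (median) and 56.1 (highest) in Tb and 33.1, 40.2, 37.3, 23.9 and 34.4 in Tb-DOX, with Tb replicates 5 and 6 inside the Tb-DOX range (log2 fold change −0.38, SE 0.185, adjusted p = 0.248). Without those libraries it was called (−0.56, adjusted p = 0.0385).

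*Acadm*, the dehydrogenase for medium chains, was not called in either state. It was at 308, 311, 335, 305 and 298 in Control and 329, 354, 240, 339 and 382 in DOX. DOX replicate 3 was lowest and DOX replicate 5 highest of both groups (log2 fold change 0.08, SE 0.12, adjusted p = 0.644). In Tb it was at 208 (lowest), 296 (median) and 331 (highest) and in Tb-DOX at 300, 295, 315, 250 and 318 (log2 fold change 0.07, SE 0.115, adjusted p = 0.766). The log2 fold change of *Acadl*, for long chains, was 0.03 in DOX and −0.08 in Tb-DOX, and that of *Acadvl*, for very long chains, −0.14 and −0.08. *Hadh*, the hydroxyacyl-CoA dehydrogenase of the spiral, fell from 91.2 ± 5.77 in Control (SD, n = 5) to 66.2 ± 14.5 in DOX (SD, n = 5), with 1 DOX library, replicate 5, inside the Control range (log2 fold change −0.46, SE 0.17, adjusted p = 0.0384). This call was lost without Control replicate 1, 2, 4 or 5 or DOX replicates 1 to 4 (log2 fold change −0.46 to −0.35, adjusted p 0.0603 to 0.121). The trifunctional protein subunits *Hadha* and *Hadhb* and the thiolase *Acaa2* were at −0.39, −0.33 and −0.41 in DOX with adjusted p of 0.0739, 0.167 and 0.0905. All 3 were called lower in DOX by limma and with library totals (−0.54, −0.48 and −0.56, adjusted p = 0.0101, 0.0242 and 0.0152), and *Hadha* and *Acaa2* also without DOX replicate 5 and without Tb replicates 5 and 6. *Hadha* was further called at an average FPKM of 5 or more, when only DOX and Control were fitted and without Tb replicate 6. In Tb-DOX they were at −0.21, −0.44 and −0.20. Adjusted p for these 3 genes was 0.491, 0.158 and 0.58.

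The 5 auxiliary enzymes, which prepare unsaturated and other acyl-CoAs for the spiral, held 0 calls by edgeR in both doxorubicin comparisons with TMM scaling and all libraries. At an unadjusted p under 0.05 in edgeR 0 were lower in DOX and 1 in Tb-DOX (*Decr1*, −0.35), and DESeq2 called 0, whereas limma and edgeR with library totals called *Ech1*, *Eci1* and *Decr1* lower in DOX (−0.36, −0.43 and −0.42 with edgeR, adjusted p = 0.0421, 0.0349 and 0.0243). In Tb-DOX *Ech1* and *Decr1* were called lower without Tb replicate 6 and without Tb replicates 5 and 6. Their log2 fold changes in DOX ran from −0.27 (*Decr1* and *Eci1*) to 0.23 (*Ehhadh*, the peroxisomal bifunctional enzyme), and in Tb-DOX from −0.35 to 0.19. Of the 3 electron transfer genes, 0 were called by edgeR with TMM scaling, the filter on low values and all libraries, with 1 (*Etfdh*) lower in DOX at an unadjusted p under 0.05 in edgeR, 0 by DESeq2 and 1 (*Etfdh* in DOX) by limma. The electron transfer flavoprotein subunits *Etfa* and *Etfb* lay near 0 (0.02 and −0.05 in DOX, −0.07 and −0.04 in Tb-DOX). Its dehydrogenase *Etfdh*, which hands the electrons to ubiquinone, was at −0.44 in DOX (adjusted p = 0.0649) and −0.26 in Tb-DOX (adjusted p = 0.433). *Etfdh* was called lower in DOX with library totals (−0.59, adjusted p = 0.0086), with the replicate block (−0.46, 0.0415) and without Tb replicates 5 and 6 (−0.43, 0.0282), and also at an average FPKM of 5 or more and without DOX replicate 1 or DOX replicate 5.

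Of the 6 uptake genes 1 rose and 2 fell in DOX, where 18% of all genes tested rose and 18.2% fell. *Fabp3* (chr4:130202388-130209256, plus strand), the cytosolic fatty acid carrier of cardiomyocytes and the gene with the highest mean level of the module in every group, was at 3790, 3350, 4580, 3310 and 2920 in Control and 1940, 1800, 825, 1960 and 2310 in DOX. No library overlapped, and DOX replicate 3 lay far below the rest of its group. *Fabp3* fell to 0.493 of the Control level (log2 fold change −1.02, SE 0.206, adjusted p = 0.000711), which was −0.83 with that library left out. It was at 1870 (lowest), 3220 (median) and 3560 (highest) in Tb and at 1940, 1810, 1920, 1800 and 1770 in Tb-DOX. Tb replicates 1 to 5 lay above all Tb-DOX libraries and Tb replicate 6 among them. The difference missed the threshold (log2 fold change −0.66, SE 0.197, adjusted p = 0.0565), and it was called by DESeq2 (−0.66, adjusted p = 0.0175), with no filter, an average FPKM of 5 or more, the replicate block or only Tb and Tb-DOX fitted, and without Tb replicate 5, Tb replicate 6 or DOX replicate 3 (−0.76 to −0.65, adjusted p 0.0125 to 0.0353). Without both of those Tb libraries the log2 fold change was −0.85 (adjusted p = 0.0053).

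*Lpl* (chr8:69333143-69360100, plus strand) encodes lipoprotein lipase, which frees fatty acids from circulating triglycerides. It was at 509, 479, 590, 458 and 497 in Control and 781, 917, 914, 1080 and 729 in DOX. All DOX libraries lay above all Control libraries. *Lpl* rose 1.74-fold (log2 fold change 0.80, SE 0.134, adjusted p = 0.00013). In Tb it was at 503 (lowest), 628 (median) and 830 (highest), and in Tb-DOX at 813, 715, 694, 774 and 667, inside the Tb range (log2 fold change 0.17, SE 0.127, adjusted p = 0.467). *Fabp4*, a fatty acid carrier of capillary endothelium and adipocytes, was at 181, 161, 174, 151 and 127 in Control and 130, 107, 98.7, 93.4 and 94.9 in DOX. Only DOX replicate 1 reached the lowest Control value, and *Fabp4* fell (log2 fold change −0.60, SE 0.123, adjusted p = 0.000819). It was at 162 (lowest), 188 (median) and 246 (highest) in Tb and 139, 122, 131, 159 and 118 in Tb-DOX, with no overlap, and fell there too (log2 fold change −0.54, SE 0.118, adjusted p = 0.0132). Of 6 endothelial markers, 0 were called in either comparison, and their summed level was 119 to 149 in Control, 103 to 143 in DOX, 126 to 178 in Tb and 112 to 141 in Tb-DOX.

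*Cd36*, the main fatty acid transporter of the cardiomyocyte membrane, was at 715, 675, 517, 557 and 541 in Control and 730, 666, 525, 619 and 576 in DOX. The groups overlapped over nearly their whole range (log2 fold change 0.05, SE 0.104, adjusted p = 0.72). In Tb it was at 543 (lowest), 603 (median) and 692 (highest) and in Tb-DOX at 631, 581, 531, 565 and 597, again with overlap (log2 fold change −0.06, SE 0.0996, adjusted p = 0.766). The transporter *Slc27a1* and the synthetase *Acsl1*, which activates long-chain fatty acids, were at −0.37 and −0.12 in DOX and −0.01 and −0.22 in Tb-DOX, and neither was called by edgeR with TMM scaling and all libraries. *Slc27a1* was called lower in DOX with library totals (−0.52, adjusted p = 0.0343), by limma and without Tb replicates 5 and 6 (−0.37, 0.0464), and *Acsl1* lower in Tb-DOX without those libraries (−0.36, 0.0323).

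All 3 lipid droplet genes were called in DOX, the lipase higher and both coat proteins lower, where 18% of all genes tested rose and 18.2% fell. *Pnpla2* encodes adipose triglyceride lipase, which starts the breakdown of stored triglyceride and provides PPARα with ligands. It was at 70.8, 63.2, 65.4, 54.6 and 51.8 in Control and 97.7, 101, 117, 142 and 96.3 in DOX. All DOX libraries exceeded all Control libraries, with DOX replicate 4 highest. *Pnpla2* rose 1.81-fold (log2 fold change 0.86, SE 0.147, adjusted p = 0.00017). In Tb it was at 42.8 (lowest), 55.4 (median) and 71.4 (highest) and in Tb-DOX at 61.1, 81.2, 78.2, 52.6 and 66.1, with overlap (log2 fold change 0.25, SE 0.139, adjusted p = 0.33).

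*Plin5*, the droplet protein that ties droplets to mitochondria, was at 32.7, 32, 41.8, 24.3 and 23.8 in Control and 25.1, 21.4, 17.2, 9.96 and 22.7 in DOX. DOX replicate 1 reached the lower Control values and the others lay below them. *Plin5* fell (log2 fold change −0.68, SE 0.198, adjusted p = 0.0103), and DOX replicate 4 lay furthest from Control. Tb libraries held 15.1 (lowest), 23.2 (median) and 24.6 (highest) and Tb-DOX libraries 20.6, 23.6, 22.1, 17.8 and 22.3, with overlap (log2 fold change 0.00, SE 0.188, adjusted p = 0.996). *Plin2*, the general droplet coat protein, was at 16.1, 15, 14.7, 12.7 and 12.3 in Control and 9.21, 7.53, 11.5, 8.08 and 11.5 in DOX. The groups did not overlap and *Plin2* fell (log2 fold change −0.57, SE 0.158, adjusted p = 0.00782). In Tb it was at 14.9 (lowest), 17.4 (median) and 25.3 (highest) and in Tb-DOX at 12.5, 14.4, 13.4, 16.5 and 11.1, with overlap (log2 fold change −0.49, SE 0.15, adjusted p = 0.0602). *Plin2* was called lower in Tb-DOX by DESeq2 (−0.50, adjusted p = 0.0265), without Tb replicate 6 and without Tb replicates 5 and 6 (−0.55, adjusted p = 0.0315 in edgeR).

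Of 8 marker genes of cardiomyocytes, which express most of the members, 4 rose in DOX, among them *Tnnt2* (log2 fold change 0.96, SE 0.134, adjusted p = 2.64e-05), and 3 rose in Tb-DOX, and 0 fell in either comparison. *Ryr2*, at −0.13 in DOX and −0.24 in Tb-DOX, was not called. Their summed level was 12900 to 16700 in Control, 15700 to 20200 in DOX, 10800 to 13200 in Tb and 13100 to 17700 in Tb-DOX. The lowest DOX sum, that of DOX replicate 3, lay within the Control range, and the lowest Tb-DOX sum, that of Tb-DOX replicate 4, below the highest of Tb. Erythroid markers summed to 258 to 1010 in Control and 5.31 to 165 in DOX, and all 5 tested fell. In tumor-bearing mice they summed to 464 to 1050 in Tb and 2.9 to 35.2 in Tb-DOX, and all 5 tested fell. In DOX 3 of 6 fibroblast markers fell, *Col3a1* (−3.71), *Col1a1* (−2.19) and *Col1a2* (−2.12), and *Pdgfra* rose (0.44). Of 6 macrophage markers 5 fell there, from −0.68 (*Mrc1*) to −1.98 (*Adgre1*), and of 6 neutrophil markers 5 rose, from 1.87 (*Mmp9*) to 7.02 (*Retnlg*). In Tb-DOX 0 neutrophil markers were called against Tb. Of the fibroblast markers *Col3a1* (−1.79) and *Col1a2* (−0.99) fell in Tb-DOX, and of the macrophage markers *Adgre1* (−0.95) and *Csf1r* (−0.55). The part of these cells in the members' levels was not tested.

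**Figure D3:**
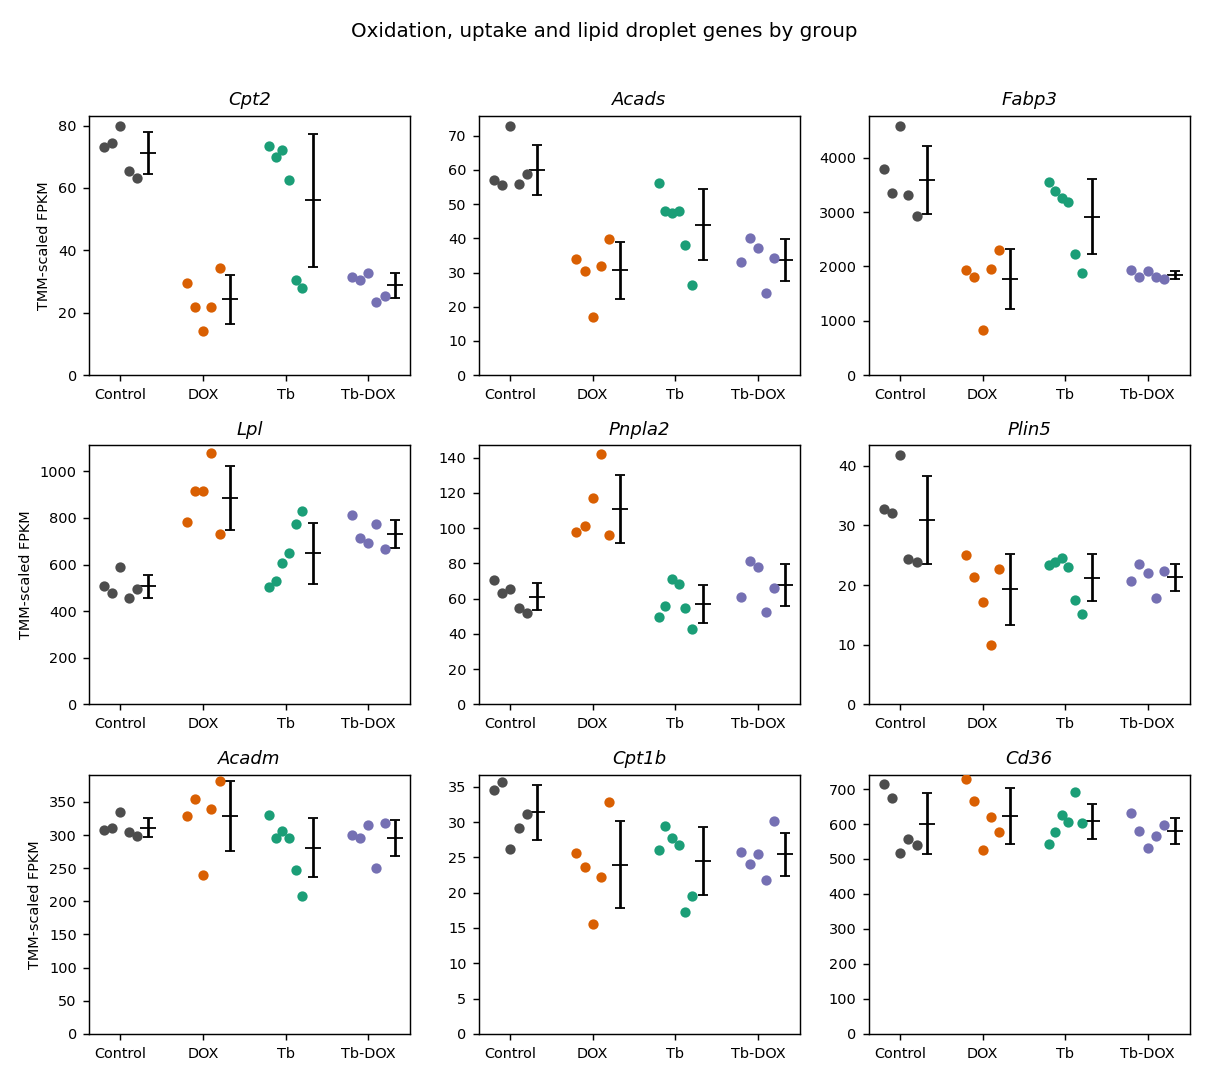
TMM-scaled FPKM of 9 uptake, transport, oxidation and droplet genes by group, with 1 point per library and bars for the mean ± SD (n = 5, 5, 6 and 5). *Cpt2*, *Acads* and *Fabp3* in DOX lie below all Control libraries, *Lpl* and *Pnpla2* above them, and *Acadm* and *Cd36* among them.

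Whether the doxorubicin effect differed between the states was tested as the fold change in tumor-bearing mice minus that in mice without tumors. Of the 41 members, 1 was called (2.44%, beside 8.94% of all genes tested, 3.95% higher and 5% lower). The effect on *Lpl* was lower in tumor-bearing mice (difference in log2 fold change −0.63, SE 0.184, adjusted p = 0.0378). Omitting 1 library at a time, 12 of 21 fits no longer called it (Control replicates 1, 2, 4 and 5, DOX replicates 2 to 4, Tb replicates 5 and 6 and Tb-DOX replicates 2, 3 and 5), with differences of −0.63 to −0.55 and adjusted p of 0.0532 to 0.0703. Without Tb replicates 5 and 6 the difference was −0.45 (adjusted p = 0.0917). The differences for *Pdk4* (−2.07, adjusted p = 0.0573) and *Pnpla2* (−0.61, adjusted p = 0.0594) missed the threshold. Both were called by DESeq2, without Tb replicate 1, without Tb replicate 6 and without Tb replicates 5 and 6, *Pdk4* also with no filter and without Control replicate 1 or DOX replicate 2, and *Pnpla2* also without DOX replicate 5. For *Cpt2* (0.59, adjusted p = 0.248) and *Ucp3* (−0.91, adjusted p = 0.438), each called in both states, no difference was called. The members that fell in one state and missed the threshold in the other, such as *Acads* and *Angptl4*, were likewise not shown to differ between states (adjusted p = 0.147 and 0.187).

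In Tb against Control 0 of 41 members were called by edgeR with the filter on low values and all libraries, beside 6.28% of all genes tested (5% higher and 1.29% lower), with 6 higher and 3 lower at an unadjusted p under 0.05. With no filter edgeR called 2 (*Ucp2* and *Pdk4*), DESeq2 called 1 (*Ucp2*) and limma 0. No member was without overlap (0 of 41, beside 6.18% of all genes), and the median log2 fold change was −0.15, beside −0.01 for all genes. The fitted values were highest for *Pdk4* (log2 fold change 1.29, SE 0.476, adjusted p = 0.121), *Angptl4* (log2 fold change 1.20, SE 0.535, adjusted p = 0.203) and *Ucp3* (log2 fold change 0.88, SE 0.506, adjusted p = 0.325), whose Tb libraries spread from below the Control mean to well above every Control library. Tb replicates 3 to 5 for *Pdk4*, and 1 to 4 for *Ucp3*, lay above all Control values, and Tb replicate 6 was below the Control mean for all 3 genes. Without Tb replicates 5 and 6, 1 member, *Ucp3*, was called (2.44%, beside 3.25% of all genes). Without Tb replicate 1, 3 members were called (*Ucp2*, *Lpl* and *Plin2*, 7.32% beside 8.61%), and without DOX replicate 4 *Plin5* was called (2.44% beside 6.46%).

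Among doxorubicin-treated mice, 3 members (7.32%) were called in Tb-DOX against DOX, beside 17.5% of all genes tested (9.52% higher and 7.93% lower). Without DOX replicate 4, Tb-DOX replicate 2 or Tb-DOX replicate 4, 1 member was called (2.44%, beside 12.6% to 14.2% of all genes). This comparison and the one of Tb with Control reuse the libraries of the comparisons above. *Pnpla2* was lower with a tumor (log2 fold change −0.71, SE 0.146, adjusted p = 0.00219), and the 5 Tb-DOX libraries lay below the 5 DOX libraries. It was the only member without overlap in this comparison (2.44%), beside 14.5% of all genes without overlap in either direction. *Plin2* was higher (log2 fold change 0.51, SE 0.158, adjusted p = 0.0301), but this call was lost without DOX replicate 1, 2 or 4 or Tb-DOX replicate 2, 3 or 4 (log2 fold change 0.43 to 0.50, adjusted p 0.0526 to 0.0861). The third was *Ucp2*, given above. *Fabp4* was called in this comparison by DESeq2, limma, with library totals, at an average FPKM of 5 or more, with only DOX and Tb-DOX fitted, without Tb replicates 5 and 6 and without Control replicate 5, DOX replicate 1, Tb replicate 1, Tb replicate 5 or Tb-DOX replicate 5, and *Acadl* without DOX replicate 3. *Pdk4*, *Cpt2* and *Acads* were at −0.78, 0.24 and 0.14, and none of them was called. Of the cell markers in this comparison, 4 of 6 macrophage and 6 of 6 neutrophil markers were higher and 0 lower. Of 8 cardiomyocyte markers 2 were lower and 0 higher, and of 6 fibroblast markers 1 was higher and 2 lower. The part of these cells in the member levels was not tested.

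Within groups the median level of the members was low in a few libraries. The median member level relative to its mean over all libraries was −0.38 (log2) in DOX replicate 3, −0.39 in Tb replicate 6, −0.20 in Tb replicate 5, −0.19 in DOX replicate 4 and −0.32 in Tb-DOX replicate 4, where Control libraries ranged from 0.06 to 0.29. In DOX replicate 3 the spiral enzymes were lowest of the group, for example *Hadha* at 87.6 where the other DOX libraries held 126 to 169. Tb replicates 5 and 6 held the lowest *Cpt2*, *Acads*, *Fabp3* and *Hadha* levels of the Tb group. The same libraries held the highest neutrophil marker sums of the Tb group, 6930 and 6320, and DOX replicate 3 and Tb-DOX replicate 4 held the highest of theirs, 83 and 4960. In DOX replicate 4 the neutrophil marker sum was 37.3, below DOX replicate 3 but above DOX replicates 1, 2 and 5 (15.7, 9.2 and 9.39). Its cardiomyocyte marker sum was 19100, inside the DOX range. DOX replicate 3, Tb replicate 6 and Tb-DOX replicate 4 also held the lowest cardiomyocyte marker sums of their groups (15700, 10800 and 13100) and the lowest shares of counts from mitochondrial genes (21.3%, 20% and 18.3%), where the other doxorubicin and Tb libraries held 22.3% to 26.9%. Control replicate 3 held 14.6% and the other Control libraries 26.5% to 28.9%. The part of these cells and of these shares in the member levels was not tested. Not all members were low in these libraries. *Pdk4* and *Angptl4* were at 400 and 3.47 in Tb replicate 5. *Lpl* (774 and 830) and *Ucp2* (9.66 and 10.7) were highest of the Tb group in Tb replicates 5 and 6. *Cd36* (692), *Fabp4* (246) and *Etfa* (331) were highest of the Tb group in Tb replicate 5. *Mlycd* (18) and *Ppargc1b* (6.62) were highest of the DOX group in DOX replicate 3.

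**Figure D4:**
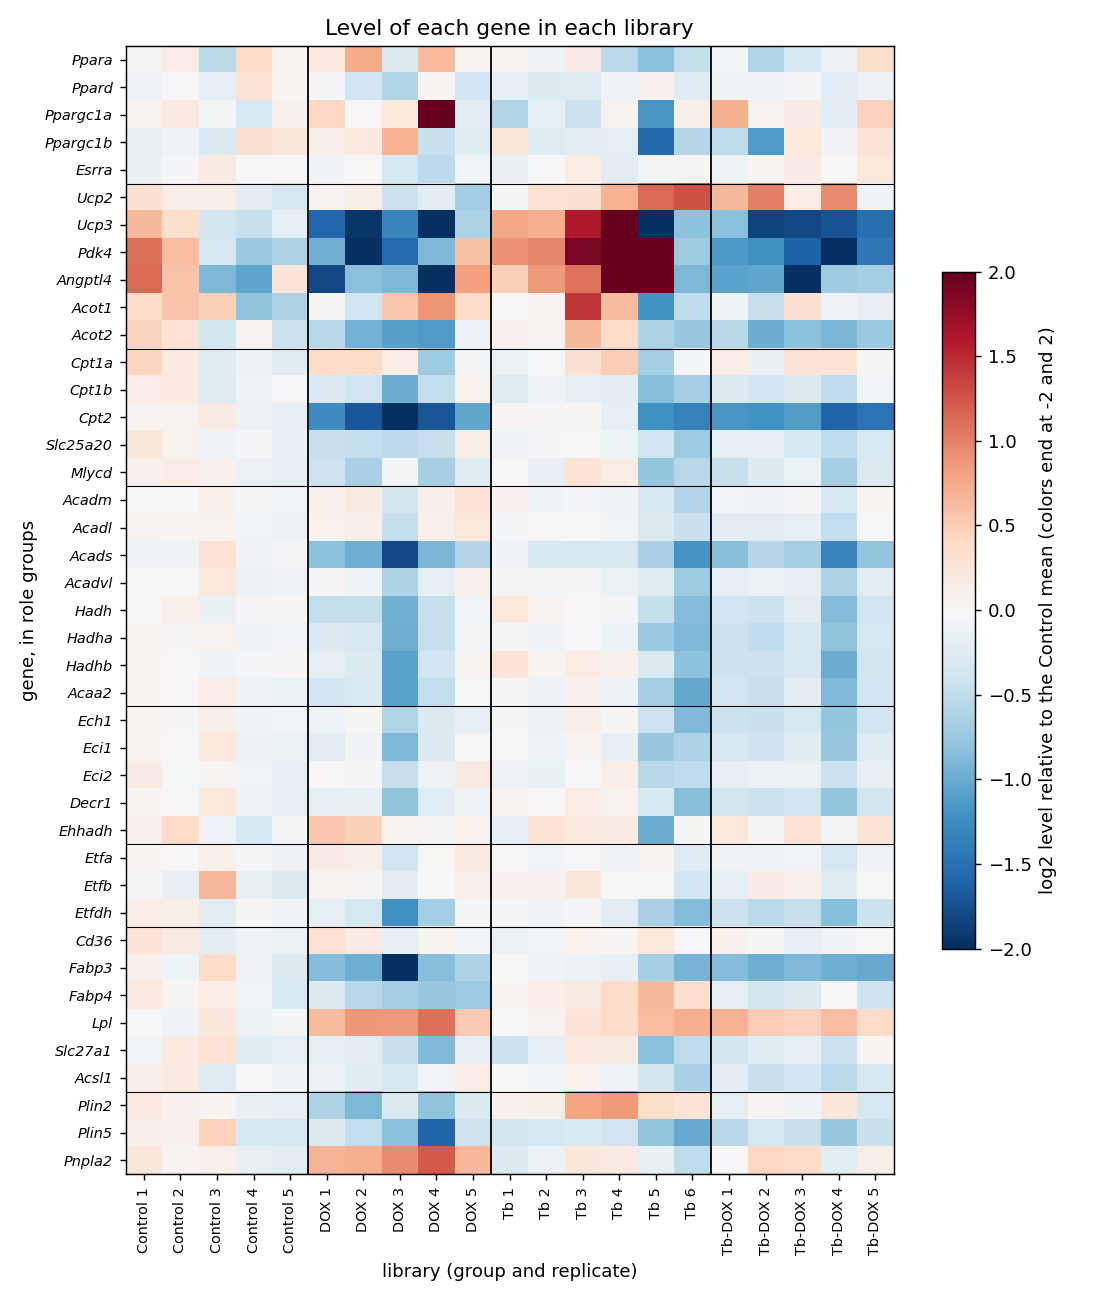
Log2 level of the 41 genes in each of the 21 libraries relative to the mean of the Control group, with colors ending at −2 and 2. *Cpt2*, *Acads* and *Fabp3* are low across DOX and Tb-DOX and in Tb replicates 5 and 6, *Pdk4* and *Angptl4* are high in most Tb libraries, and DOX replicate 3 is low across the oxidation genes.

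A further 72 genes of the same pathways were followed beside the module, of which 67 passed the filter. In DOX 12 rose and 17 fell (43.3%, beside 36.2% of all genes tested), with a median log2 fold change of −0.14. Of these 3 passed 2-fold. The droplet coat gene *Plin4* rose from 42.7 ± 7.06 to 99.4 ± 33.6 (SD, n = 5 each; log2 fold change 1.22, SE 0.196, adjusted p = 9.26e-05). *Acaca*, which makes malonyl-CoA, rose from 0.705 ± 0.0495 to 1.44 ± 0.672 (SD, n = 5 each; log2 fold change 1.03, SE 0.232, adjusted p = 0.00166), with overlap. *Acacb*, which also makes malonyl-CoA, held 2953 to 5712 counts per library, against 143 to 651 for *Acaca*, and did not pass 2-fold. *Mgll*, the lipase that completes triglyceride breakdown, fell from 25.7 ± 3.35 to 12.1 ± 3.45 (SD, n = 5 each; log2 fold change −1.08, SE 0.172, adjusted p = 8.33e-05). By role, 5 of 11 further uptake genes fell and 1 rose, 4 of 10 peroxisomal genes fell and 2 rose, and 4 of 18 further regulators rose and 3 fell. In Tb-DOX 1 of the 67 rose (*Hsd17b10*, 0.33) and 3 fell (*Pdk1*, −0.33, the carnitine transporter *Slc22a5*, −0.57, and *Mgll*, −0.58), which is 5.97% beside 4.72% of all genes. The difference between states was called for 2 of them (2.99%, beside 8.94% of all genes), the transporter gene *Slc27a4* (0.91, adjusted p = 0.0251) and the corepressor gene *Nrip1* (−1.22, adjusted p = 0.019). In Tb against Control 2 rose (2.99%, beside 6.28%), among them the pyruvate dehydrogenase kinase gene *Pdk3* (1.17, adjusted p = 0.00407), and in Tb-DOX against DOX 5 rose and 4 fell (13.4%, beside 17.5%).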

How the data were processed

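Heart RNA from 21 libraries was analysed, in 4 groups taken from the labels. Per the labels, RNA was enriched with oligo(dT) beads or by rRNA depletion and sequenced in pairs of 150 bases. The submitters' processing notes name cutadapt, FastQC, HISAT2, HTSeq 0.6.1, DESeq2 1.34.0 and GRCm39, and the strand setting is not given in the sources used here. In the table that the authors deposited, each gene has a raw count and an FPKM in each library, and the deposited FPKM equalled the count per kilobase relative to the library total in 100% of values (tolerance 0.01, or 0.1% of the value). Gene coordinates are those of that table. No row named no gene (0 rows), and all value columns belonged to these libraries.

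Counts were fitted in edgeR 4.0.16 (R 4.3.3) with TMM scaling, 1 coefficient per group in 1 fit and quasi-likelihood F tests over the 13990 genes whose FPKM averaged 0.5 or more. Calls had a Benjamini-Hochberg adjusted p under 0.05 over all genes tested, two-sided. All 41 members passed the filter. The code was tested on simulated data. FPKM values were scaled by the TMM factors for display (mean ± SD). Group means differ from fitted values, and each SE was derived from the F statistic. Depth was 13521200 to 18601445 counts, and the lowest member count in a library was 6. No replicates were near-identical (chi-square per degree of freedom at least 5.70).

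The members and gene lists were chosen with earlier results of these data known. Members named with their values by library (for the 6 Tb libraries the lowest, median and highest) were the called genes of largest change (up to 8 in each doxorubicin comparison and up to 4 in each tumor comparison), those called in the difference between states, and *Ppara*, *Ppargc1a*, *Cpt1b*, *Acadm*, *Cd36*, *Lpl*, *Acot1* and *Acot2*, with *Plin2* added, and *Hadh* as group means, because they were called. Of other pathway genes those past 2-fold in a doxorubicin comparison were named by rule, and the others after their values were seen. Marker lists were fixed for cardiomyocytes, atria, adipocytes, endothelium, fibroblasts, macrophages, neutrophils, T cells, erythroid cells, germ cells and epithelium. Of lists not given in the text, 1 of 4 atrial genes (*Nppa*) was higher in both doxorubicin comparisons, and *Tnp1*, the 1 of 6 germ cell genes that passed the filter, was lower in DOX against Control (−5.97) and higher in Tb-DOX against Tb (4.76, adjusted p = 0.0105 in edgeR). Alternatives were median-ratio or library-total scaling, no filter or an average FPKM of 5 or more, DESeq2 1.42.0, limma 3.58.1 on log2(FPKM + 0.1) and log2(FPKM + 1), the replicate number as a block, only the 2 groups compared, a 2-fold minimum and leaving out each library. Added after seeing the data were fits without Tb replicates 5 and 6, motif searches with more mismatches, and transcript windows.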

Additional observations from a re-analysis of the deposited data

Results flagged for a closer look

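In 4 cases a library value lay apart from the other libraries of their group by the size of the gap to the nearest one, among 20 genes in 4 groups (80 groups of libraries checked), where chance alone marks about 1 in 20. *Ppargc1a* was at 101 in DOX replicate 4, and the next DOX library was at 31.4. *Fabp3* was at 825 in DOX replicate 3, beside 1800 in the next. *Angptl4* was at 0.143 in Tb-DOX replicate 3, beside 0.317. *Acads* was at 73 in Control replicate 3, beside 58.7. These values are TMM-scaled FPKM.

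The doxorubicin effect on *Lpl* differed between tumor-bearing mice and mice without tumors, by −0.63 in log2 fold change (edgeR, adjusted p = 0.0378). The range of this difference when 1 library was left out was −0.70 to −0.55, and 12 of these 21 fits no longer called it. The call for *Lpl* was also lost with library totals (−0.48, adjusted p = 0.13), with limma at either pseudocount (−0.45, 0.16 at a pseudocount of 1), at an average FPKM of 5 or more (−0.57, 0.0504), with the replicate block (−0.54, 0.0889) and without Tb replicates 5 and 6 (−0.45, 0.0917).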

How the results depend on the processing

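Of the fits of called members under alternatives that kept all libraries, or left out Tb replicates 5 and 6, and apart from the 2-fold minimum, 192 of 208 kept the call, 16 lost it and 0 changed direction. Under the 2-fold minimum 6 calls were kept and 15 lost. Library totals put the median of all genes at −0.14 in DOX against Control (1419 higher and 3532 lower, against 2523 and 2548 with TMM), at 0.18 in Tb-DOX against DOX and at 0.14 in the difference between states. Relative to that shift, the members' median of −0.42 stayed about as far below all genes.

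Members lower in DOX against Control numbered 9, and 22 with library totals or with limma at either pseudocount, 14 at an average FPKM of 5 or more, 16 without Tb replicates 5 and 6, and 3 with a 2-fold minimum (members higher: 2, then 0). Members lower in Tb-DOX against Tb numbered 6, and 3 with limma at either pseudocount or the 2-fold minimum, and 16 without Tb replicates 5 and 6. The difference between states was called for 1 member, and for 0 with library totals, an average FPKM of 5 or more, limma at either pseudocount or the 2-fold minimum, 2 without a filter or without Tb replicates 5 and 6, and 3 by DESeq2. Tb against Control gave 0, and 2 without a filter, 1 by DESeq2 and 1 without Tb replicates 5 and 6. Tb-DOX against DOX gave 3, and 6 with library totals or limma at either pseudocount, 5 at an average FPKM of 5 or more and 0 with the 2-fold minimum. Only the 2 groups compared gave counts within 1.5 times of these. The cause was not tested where it is not fewer genes or libraries.

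Deviations of same-numbered libraries from their group means correlated at −0.261 to 0.233 over 30 pairs. With so few libraries per group, these correlations cannot settle whether the numbers pair libraries. With the replicate block the counts were 2 higher and 11 lower in DOX against Control, 0 and 8 in Tb-DOX against Tb, 0 for the difference between states, 0 in Tb against Control and 3 in Tb-DOX against DOX. The best correlate of a library was its own number in 1 of 21 libraries.

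Leaving out 1 library at a time gave 2 to 3 members higher and 6 (without Control replicate 1) to 16 (without DOX replicate 5) lower in DOX against Control, 0 to 0 higher and 4 (without Tb replicate 1) to 11 (without Tb replicate 6) lower in Tb-DOX against Tb, 0 (without Control replicates 2, 4 or 5, DOX replicates 3 or 4, Tb replicate 5 or Tb-DOX replicates 2, 3 or 5) to 3 (without Tb replicate 1) for the difference between states, 0 to 3 (without Tb replicate 1) in Tb against Control, and 1 (without DOX replicate 4, Tb-DOX replicate 2 or Tb-DOX replicate 4) to 4 in Tb-DOX against DOX.

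The genes that changed sign all lay near 0 and were not called. In DOX against Control *Acadm* was at −0.07 with library totals and −0.08 with limma, and *Cd36* at −0.09 and −0.08. In Tb-DOX against Tb, *Plin5* was at −0.00 with median-ratio scaling, no filter or DESeq2, −0.09 with the replicate block and −0.15 without Tb replicates 5 and 6, *Cpt1b* at −0.02 with the block and −0.11 without those libraries, *Ucp2* at 0.01 and 0.25, *Acadm* at −0.05 and *Ppara* at −0.04 without those libraries. Leaving out 1 library gave −0.01 to 0.12 for *Cd36* in DOX, and −0.03 to 0.11 for *Cpt1b*, −0.08 to 0.07 for *Plin5*, −0.03 to 0.22 for *Ppara* and −0.22 to 0.06 for *Ucp2* in Tb-DOX. The lowest counts of *Angptl4*, *Ucp3* and *Acot1* in a library were 6, 36 and 39, so counting error weighs most there.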
